A study of Mus musculus with 69 samples.

Results

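The genes described here are 45 genes of the cell cycle and of cell division, listed by name. All 45 were found among the 9930 complete gene records of the count table, and all 45 reached at least 10 counts in at least 7 libraries, as did 7163 of the 9930 records. They were measured by RNA sequencing in the hippocampus of 69 male mice, 1 library per animal. The animals were wildtype or knockout for Cdh13, which encodes T-cadherin, a cell adhesion protein, and carried no other allele that the labels name. The labels do not say in which cells or by which allele Cdh13 was removed. Pups either spent 3 h a day away from the dam from P1 to P14 (postnatal days 1 to 14; "separated") or were handled only ("control"), and all litters were weaned at P22. Among wildtypes, 8 control and 11 separated animals were taken at P22 and 7 and 10 in adulthood, at P66. Among knockouts, 9 control and 10 separated animals were taken at P22 and 7 and 7 at P66. This gave 38 animals at P22 and 31 at P66. The labels place the animals in 2 cohorts, cohort 1 and cohort 2. The labels name no litters, so p-values of the separation comparisons are too small if littermates resembled each other.

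A dividing cell copies its DNA in S phase and then separates the copies in mitosis. In S phase the Mcm helicase unwinds the DNA, Pcna clamps the polymerases to it, and cyclin E and E2f1 switch the phase on. In mitosis condensin compacts the chromosomes, a spindle attaches to them at the kinetochores, a checkpoint holds the cell until every kinetochore is attached, and a ubiquitin ligase then releases it into division. Most mitotic genes are silent in resting cells, whereas many replication genes also serve DNA repair and remain on at a low level. In the young and adult hippocampus the dividing cells are mainly neural progenitors of the dentate gyrus, oligodendrocyte precursors and a few glial and vascular cells, while the pyramidal and granule neurons do not divide.

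Levels below are counts per 1000000 counts (CPM) of the part of the table held here, which covers chromosomes 1 to 7 and the start of chromosome 8 and holds 11.3 to 16.4 M counts per library (M, mega; median 13.3 M). Markers of hippocampal neurons were present in every library. Slc17a7, the vesicular glutamate transporter of excitatory neurons, lay between 2753 and 5051 CPM, and Prox1, a marker of dentate granule cells, between 193 and 499 CPM. In 7 libraries, spread over 5 groups, the mean log2 level of 8 choroid plexus genes was more than 2 below the median of all libraries. Results are therefore also given without these 7. Cdh13 itself was not analysed here, and its level could not serve as a check of genotype.

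From P22 to P66, 30 of the 45 genes fell and 6 rose, and 9 did not pass the test, on average over the 4 combinations of genotype and rearing (edgeR's quasi-likelihood test, Benjamini-Hochberg adjusted p under 0.05 over 7131 genes). Over all genes tested, 25.8% fell and 26.2% rose. The median change of the 45 genes was -0.38 on the log2 scale, against 0.01 for all genes. In cohort 1 alone 28 fell and 3 rose, and in cohort 2 alone 30 fell and 6 rose. Without the 7 libraries low in choroid plexus genes the counts were 31 and 6. In bulk tissue, fewer cells of a type and less RNA per cell cannot be told apart.

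**Figure D1:**
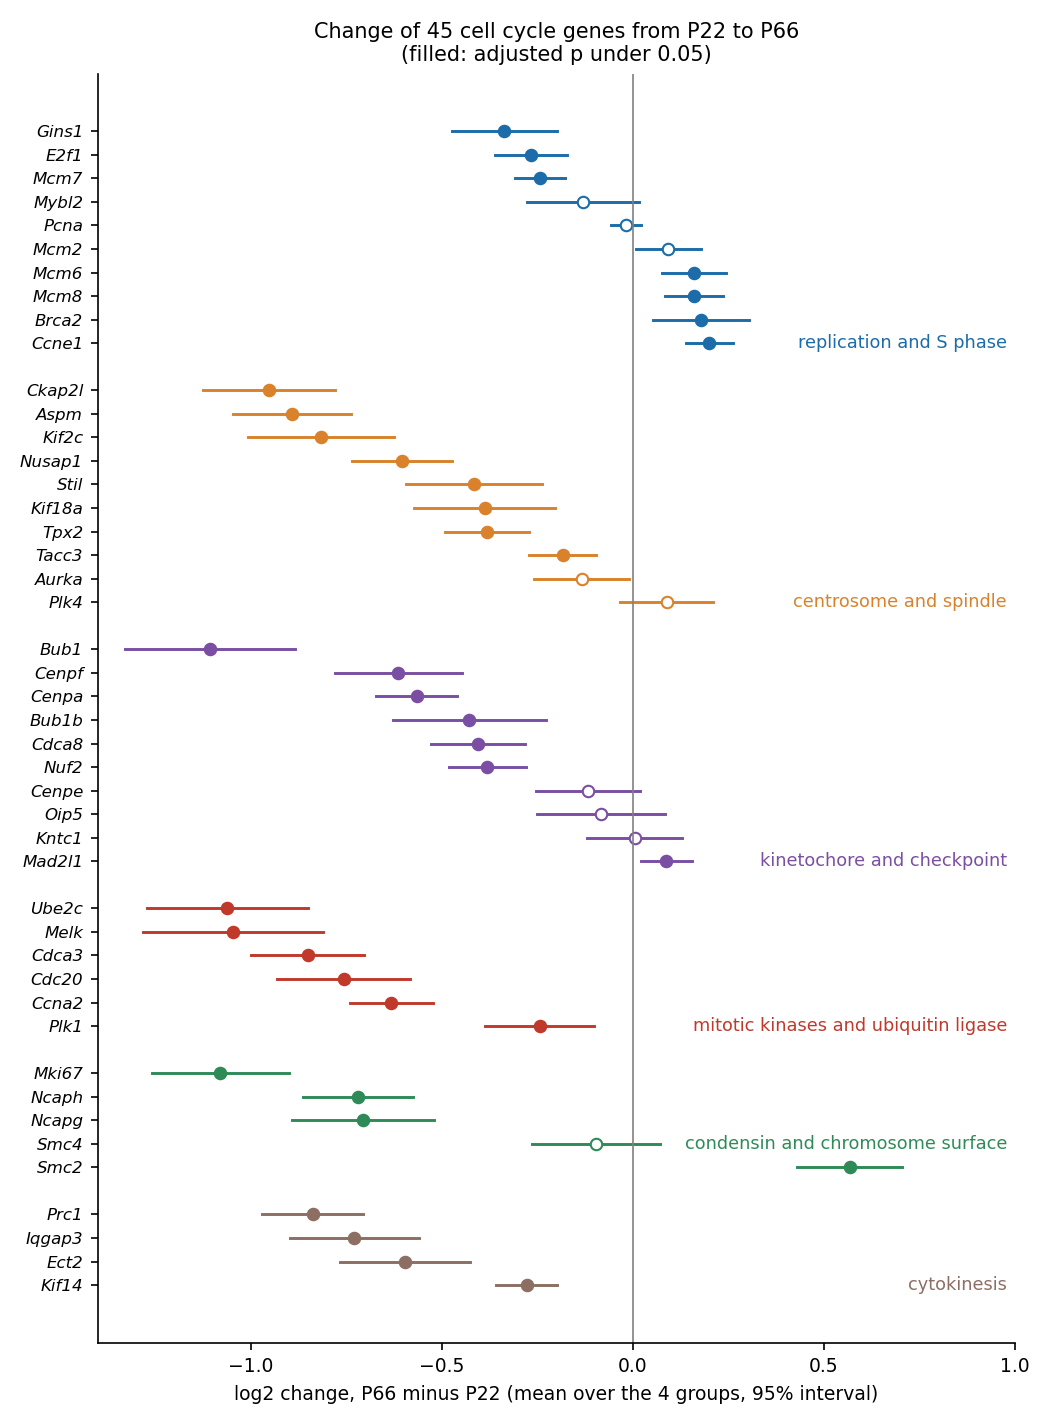
Change of each of the 45 genes from P22 to P66 (x axis, log2; point: mean over the 4 combinations of genotype and rearing, line: 95% interval; filled points passed at an adjusted p under 0.05), grouped by role. The mitotic roles lie mainly left of 0, down to -1.11 for Bub1, replication genes lie around 0, and Smc2 stands apart at 0.57.

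The change with age differed by role. All 6 genes of the mitotic kinases, cyclin A and the ubiquitin ligase fell, with a median log2 change of -0.80. All 4 genes of cytokinesis fell (median -0.66). Of the 5 genes of condensin and the chromosome surface 3 fell, 1 rose and 1 did not pass (median -0.71). Of the 10 kinetochore and checkpoint genes 6 fell, 1 rose and 3 did not pass (median -0.39), and of the 10 centrosome and spindle genes 8 fell and 2 did not pass (median -0.40). Of the 10 genes of replication and S phase 3 fell, 4 rose and 3 did not pass, and their median was 0.04. Over all genes tested 25.8% fell and 26.2% rose, and the replication counts were not far from these shares.

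Per animal, the separation of the roles showed in their mean levels. The mean log2 (CPM + 0.5) of the 35 genes outside replication lay between 2.23 and 2.78 at P22 (median 2.56) and between 1.96 and 2.34 at P66 (median 2.12). Of the 31 animals at P66, 2 lay above the lowest animal at P22, and 1 of the 38 animals at P22 lay below the highest at P66. The same mean over the 10 replication genes ran from 3.91 to 4.30 at P22 (median 4.07) and from 3.91 to 4.17 at P66 (median 4.04), so that these ranges overlapped almost wholly. As summed CPM, the 35 genes together made up 197 to 287 CPM at P22 and 178 to 235 CPM at P66, and the 10 replication genes 238 to 283 and 234 to 285 CPM.

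**Figure D2:**
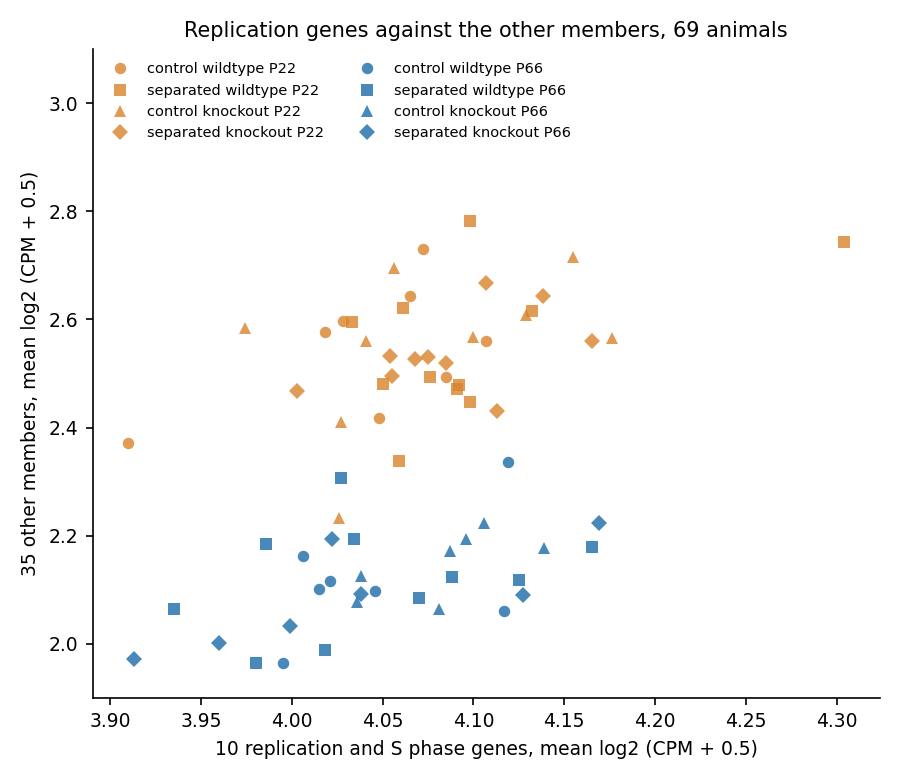
Each point is 1 of 69 animals, placed by the mean log2 (CPM + 0.5) of the 10 replication genes (x axis) and of the other 35 genes (y axis), with age as colour and group as symbol. The ages separate along the y axis, with medians of 2.56 at P22 and 2.12 at P66, and overlap along the x axis, with medians of 4.07 and 4.04.

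Among the mitotic kinases and the ubiquitin ligase, Ccna2 and Cdca3 had the smallest p-values. Ccna2 (ENSMUSG00000027715.9, chr3:36564865-36572150) encodes cyclin A2, which drives Cdk activity through S phase and into mitosis. At P22 its level was 6.78 to 10.2 (median 7.6) in control wildtype, 6.89 to 10.9 (median 8.41) in separated wildtype, 5.46 to 8.67 (median 8.08) in control knockout and 5.68 to 9.73 (median 7.88) in separated knockout animals. At P66 it was 4.01 to 6.44 (median 5.06) in control wildtype, 4.33 to 7.18 (median 5.19) in separated wildtype, 3.95 to 6.35 (median 5.35) in control knockout and 3.77 to 5.07 (median 4.61) in separated knockout animals. All 31 animals at P66 lay below the P22 median of their own group, and the ranges of the ages did not overlap in control wildtypes and separated knockouts, while they overlapped in the other two groups. The fall was -0.63 ± 0.0543 (SE) on the log2 scale, or 1.55-fold (adjusted p = 6.14e-16). Cdca3 (ENSMUSG00000023505.13, chr6:124829547-124833701) encodes a substrate adaptor of a ubiquitin ligase that clears the mitosis inhibitor Wee1. Its level at P22 was 2.95 to 5.02 (median 3.75) in control wildtype, 3.22 to 6.19 (median 4.58) in separated wildtype, 3.65 to 6.16 (median 4.099) in control knockout and 2.68 to 6.11 (median 4.07) in separated knockout animals. The level at P66 was 1.63 to 3.02 (median 2.62) in control wildtype, 1.22 to 2.96 (median 2.47) in separated wildtype, 1.82 to 2.77 (median 2.08) in control knockout and 1.91 to 3.53 (median 2.42) in separated knockout animals. Every animal at P66 again lay below the P22 median of its group, and the fall was -0.85 ± 0.07404 (SE) (adjusted p = 1.03e-15).

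The largest fall of this role was that of Ube2c, the ubiquitin-conjugating enzyme of the anaphase-promoting complex, at -1.06 ± 0.105 (SE) (2.09-fold). Melk, a kinase of proliferating progenitors, changed by -1.05 ± 0.118 (SE), and Cdc20, the activator that points the anaphase-promoting complex at its mitotic targets, by -0.76 ± 0.0873 (SE). These 3 genes were low: at P66 their medians were 1.08, 0.733 and 1.61 CPM. Plk1, the polo-like kinase of mitotic entry, had the smallest fall of this role, at -0.24 ± 0.0716 (SE) (adjusted p = 0.00331), and in 10 of 31 animals at P66 it was not below the P22 median of the group. In cohort 1 alone Plk1 did not pass (-0.17, adjusted p = 0.300).

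Mki67 and the condensin subunits make up the next role. Mki67 (ENSMUSG00000031004.8, chr7:135689784-135716361) encodes the surface protein that keeps mitotic chromosomes apart and serves as the common histological mark of proliferating cells. At P22 Mki67 stood at 7.64 to 14.7 (median 12.7) in control wildtype, 7.97 to 15.6 (median 10.7) in separated wildtype, 4.997 to 15 (median 10.5) in control knockout and 7.57 to 13.9 (median 10.98) in separated knockout animals. At P66 Mki67 stood at 3.32 to 7.53 (median 5.22) in control wildtype, 3.12 to 7.52 (median 5.596) in separated wildtype, 4.31 to 6.02 (median 5.31) in control knockout and 2.96 to 7.54 (median 3.69) in separated knockout animals. All 31 animals at P66 lay below the P22 median of their own group, although 17 of them lay above the lowest animal at P22, a control knockout at 4.997 CPM. The fall was -1.08 ± 0.0895 (SE), or 2.11-fold (adjusted p = 1.42e-16), and within cohorts it was -1.16 and -1.02. Ncaph (ENSMUSG00000034906.15, chr2:127103809-127133954), the kleisin subunit that closes the ring of condensin I, measured 3.86 to 7.08 (median 5.72) in control wildtype, 3.22 to 6.57 (median 5.04) in separated wildtype, 3.75 to 7.02 (median 5.799) in control knockout and 5.05 to 8.19 (median 5.58) in separated knockout animals at P22. At P66 it measured 2.53 to 3.93 (median 3.54) in control wildtype, 2.21 to 4.95 (median 3.23) in separated wildtype, 2.54 to 4.01 (median 3.28) in control knockout and 2.31 to 4.604 (median 3.097) in separated knockout animals. Ncaph was below the P22 group median in all 31 animals at P66, with a change of -0.72 ± 0.0721 (SE) (adjusted p = 2.41e-13). Ncapg, a further subunit of condensin I, fell by 0.71 on the log2 scale.

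The core ATPases of condensin did not follow these subunits. Smc4 changed by -0.10 ± 0.0845 (SE) (95% interval -0.26 to 0.07; adjusted p = 0.346) and did not pass. Smc2 (ENSMUSG00000028312.19, chr4:52439243-52488260) rose. Its level at P22 was 23.8 to 37.7 (median 29.8) in control wildtype, 21.7 to 35.4 (median 28.4) in separated wildtype, 20.5 to 35.9 (median 24.6) in control knockout and 22.6 to 38.99 (median 25.1) in separated knockout animals. Its level at P66 was 28.1 to 45.2 (median 43.3) in control wildtype, 30.4 to 52.8 (median 42.6) in separated wildtype, 32.5 to 49.9 (median 40.4) in control knockout and 16.9 to 52.6 (median 39.4) in separated knockout animals. In 29 of the 31 animals at P66 Smc2 was at or above the P22 median of the group, and the rise was 0.57 ± 0.0685 (SE), or 1.48-fold (adjusted p = 1.29e-10), the largest rise among the 45 genes. Within cohorts it was 0.57 and 0.61. The lowest value at P66, 16.9 CPM, came from animal C1-56 of the separated knockouts, 1 of the 7 libraries low in choroid plexus genes. In that library 5 of the 45 genes had their lowest P66 value, among them Smc4 at 5.11 CPM and Brca2 at 5.91 CPM. As many had it in animal C2-84 of the same group, which was not low in choroid plexus genes.

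Of the cytokinesis genes, Prc1 had the smallest p-value of all 45 genes. Prc1 (ENSMUSG00000038943.16, chr7:80294450-80316259) bundles the microtubules of the spindle midzone, where the cleavage furrow forms. P22 levels of Prc1 were 5.37 to 7.903 (median 6.13) in control wildtype, 4.45 to 7.21 (median 5.46) in separated wildtype, 3.904 to 7.16 (median 5.801) in control knockout and 5.09 to 8.26 (median 5.499) in separated knockout animals. P66 levels were 2.78 to 4.27 (median 3.64) in control wildtype, 2.13 to 3.8 (median 3.06) in separated wildtype, 2.28 to 4.39 (median 3.35) in control knockout and 1.91 to 4.14 (median 3.41) in separated knockout animals. Only 5 of the 31 animals at P66 lay above the lowest animal at P22, a control knockout at 3.90 CPM. Prc1 fell by 0.84 on the log2 scale (1.79-fold, SE 0.0659; adjusted p = 1.46e-17). Iqgap3 (ENSMUSG00000028068.14, chr3:88081971-88121048), a scaffold of proliferating cells that binds small GTPases, ran at 1.67 to 4.46 (median 2.71) in control wildtype, 2.52 to 3.699 (median 2.92) in separated wildtype, 2.57 to 3.54 (median 3.19) in control knockout and 2.26 to 3.73 (median 2.94) in separated knockout animals at P22. At P66 it ran at 0.98 to 2.39 (median 1.86) in control wildtype, 0.993 to 2.82 (median 1.49) in separated wildtype, 0.708 to 2.49 (median 1.91) in control knockout and 1.56 to 2.702 (median 2.02) in separated knockout animals. Its change was -0.73 ± 0.0842 (SE) (adjusted p = 3.18e-11), with all 31 animals at P66 below the P22 median of their group. Ect2, the exchange factor that switches on RhoA at the furrow, changed by -0.60 ± 0.0851 (SE) and Kif14, a midzone kinesin, by -0.28 ± 0.04004 (SE).

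**Figure D3:**
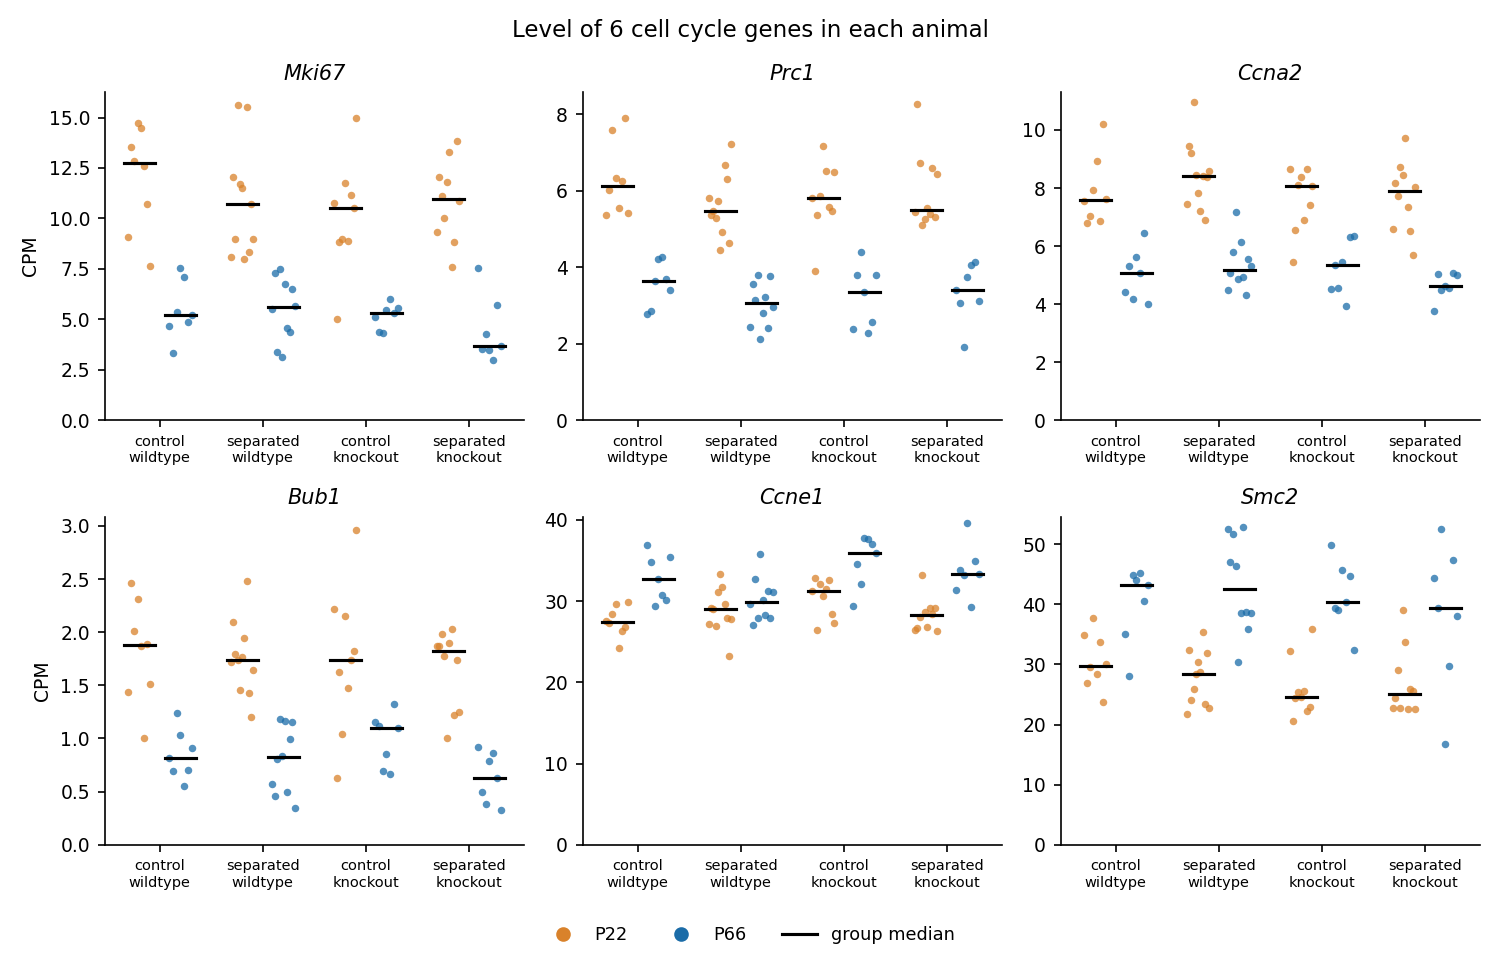
Level (y axis, CPM from 0) of Mki67, Prc1, Ccna2, Bub1, Ccne1 and Smc2 in each animal of the 8 groups (points; black line: group median), P22 in orange and P66 in blue. In the first 4 genes the P66 median lies below the P22 median of the same group in all 4 groups, as for Mki67 with 5.22 against 12.7 CPM in control wildtypes, and in Ccne1 and Smc2 it lies above it.

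Among the kinetochore and checkpoint genes, Cenpa and Bub1 had the smallest p-values. Cenpa (ENSMUSG00000029177.9, chr5:30666777-30674830) encodes the histone H3 variant that marks the centromere. Cenpa was at 6.57 to 11.5 (median 8.31) in control wildtype, 7.95 to 11.7 (median 8.82) in separated wildtype, 7.09 to 10.4 (median 8.67) in control knockout and 7.61 to 11.3 (median 9.11) in separated knockout animals at P22. By P66 it was at 4.57 to 7.18 (median 5.93) in control wildtype, 4.49 to 7.52 (median 6.59) in separated wildtype, 4.31 to 6.39 (median 5.54) in control knockout and 5.41 to 7.71 (median 5.696) in separated knockout animals. The change was -0.57 ± 0.05304 (SE) (adjusted p = 2.03e-14), and each animal at P66 lay under the P22 median of its group. Bub1 (ENSMUSG00000027379.13, chr2:127801122-127831865), a kinase of the spindle checkpoint, showed the largest fall of all 45 genes, -1.11 ± 0.112 (SE) or 2.15-fold (adjusted p = 3.08e-13). Bub1 levels at P22 were 1.005 to 2.46 (median 1.88) in control wildtype, 1.198 to 2.48 (median 1.74) in separated wildtype, 0.625 to 2.96 (median 1.73) in control knockout and 1.004 to 2.03 (median 1.82) in separated knockout animals. Those at P66 were 0.553 to 1.24 (median 0.817) in control wildtype, 0.348 to 1.18 (median 0.822) in separated wildtype, 0.669 to 1.33 (median 1.09) in control knockout and 0.328 to 0.924 (median 0.624) in separated knockout animals. These are low values, resting on 4 to 41 counts per library, and 19 of the 31 libraries at P66 held at least 10 counts of Bub1. Within cohorts the change was -1.03 and -1.22.

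Other members of the kinetochore fell less than Bub1. Cenpf, a large protein of the outer kinetochore, changed by -0.61 ± 0.08297 (SE), Bub1b, the checkpoint protein that restrains Cdc20, by -0.43 ± 0.0999 (SE), Cdca8, a subunit of the chromosomal passenger complex, by -0.40 ± 0.0616 (SE), and Nuf2, which couples kinetochores to microtubules, by -0.38 ± 0.0507 (SE). Cenpe, a kinetochore kinesin, had a change of -0.12 ± 0.0682 (SE), Oip5, which helps to load Cenpa, of -0.08 ± 0.0837 (SE), and Kntc1, which recruits dynein, of 0.01 ± 0.0622 (SE), and none of the 3 passed. Mad2l1, the checkpoint protein that binds and blocks Cdc20, rose slightly, by 0.09 ± 0.0335 (SE) (adjusted p = 0.0235). Mad2l1 did not pass in cohort 1 alone (0.08, adjusted p = 0.292). Without animal C2-84 of the separated knockouts at P66 it was 0.07 and did not pass either (adjusted p = 0.0546).

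Of the centrosome and spindle genes, Aspm and Ckap2l had the smallest p-values. Aspm (ENSMUSG00000033952.14, chr1:139454772-139494091) encodes a spindle pole protein of neural progenitors whose human gene is mutated in microcephaly. At P22 Aspm reached 2.71 to 5.68 (median 4.44) in control wildtype, 3.37 to 5.29 (median 3.97) in separated wildtype, 2.03 to 5.41 (median 4.04) in control knockout and 3.24 to 4.91 (median 3.87) in separated knockout animals. At P66 Aspm reached 1.26 to 3.17 (median 1.97) in control wildtype, 1.67 to 3.88 (median 2.197) in separated wildtype, 1.82 to 2.7 (median 2.21) in control knockout and 1.52 to 2.45 (median 1.99) in separated knockout animals. Its fall was -0.89 ± 0.0774 (SE), or 1.85-fold (adjusted p = 9.55e-16). Ckap2l (ENSMUSG00000048327.6, chr2:129268210-129297212), a spindle protein of neural progenitors, had levels of 2.39 to 5.52 (median 3.64) in control wildtype, 2.25 to 5.25 (median 3.47) in separated wildtype, 2.89 to 4.79 (median 3.87) in control knockout and 2.79 to 4.63 (median 3.94) in separated knockout animals at P22. Levels at P66 were 0.832 to 2.88 (median 1.85) in control wildtype, 1.1 to 2.93 (median 1.93) in separated wildtype, 1.54 to 2.36 (median 2.12) in control knockout and 1.25 to 3.341 (median 1.81) in separated knockout animals. The fall of Ckap2l was -0.95 ± 0.0868 (SE) (adjusted p = 6.57e-15). For both genes all 31 animals at P66 lay below the P22 median of their group. Kif2c, a kinesin that shortens microtubules, changed by -0.82 ± 0.0956 (SE), and Nusap1, which bundles spindle microtubules, by -0.60 ± 0.0654 (SE).

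The remaining spindle genes changed less. Kif18a, a kinesin that aligns chromosomes, changed by -0.39 ± 0.0926 (SE), Tpx2, the activator of Aurora A, by -0.38 ± 0.0546 (SE), and Tacc3, a protein of the spindle fibres, by -0.18 ± 0.0435 (SE). The centriole genes went apart. Stil, a scaffold of new centrioles, fell by 0.42 on the log2 scale, whereas Plk4, the kinase that starts centriole duplication, changed by 0.09 ± 0.0608 (SE) and did not pass. Aurka, the kinase Aurora A, changed by -0.13 ± 0.0627 (SE) (adjusted p = 0.0666). In cohort 1 alone Stil did not pass (-0.33, adjusted p = 0.0592), and in cohort 2 alone Kif18a did not (-0.30, adjusted p = 0.0997).

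The replication genes spread around 0. Mcm7 (ENSMUSG00000029730.16, chr5:138164583-138172422), a subunit of the replicative helicase, was at 23.3 to 31.9 (median 28.8) in control wildtype, 26.5 to 35.5 (median 29.7) in separated wildtype, 28.4 to 35.5 (median 31.1) in control knockout and 25.4 to 38.6 (median 31.5) in separated knockout animals at P22. The P66 level of Mcm7 was 22.4 to 28.2 (median 24.3) in control wildtype, 24.1 to 29.2 (median 26.2) in separated wildtype, 22.4 to 28.6 (median 24.6) in control knockout and 21.6 to 30.97 (median 26.5) in separated knockout animals. Mcm7 fell by 0.24 on the log2 scale (1.18-fold, SE 0.0331; adjusted p = 4.77e-09), with all 31 animals at P66 below the P22 median of their group. Other subunits of the same ring did not share this fall. Mcm6 rose by 0.16 ± 0.04202 (SE) (adjusted p = 0.00107), and Mcm2 changed by 0.09 ± 0.0425 (SE) (adjusted p = 0.0582). Gins1, which activates the helicase, had the largest fall of this role, at -0.34 ± 0.0688 (SE), and E2f1, the transcription factor of S phase genes, fell by 0.27. In cohort 2 alone Mcm6 did not pass (0.11, adjusted p = 0.222).

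Ccne1 (ENSMUSG00000002068.16, chr7:38097984-38107534), the gene of cyclin E1, which opens S phase with Cdk2, had the largest rise among the replication genes. Its P22 levels were 24.2 to 29.9 (median 27.5) in control wildtype, 23.3 to 33.3 (median 29.1) in separated wildtype, 26.5 to 32.9 (median 31.3) in control knockout and 26.4 to 33.3 (median 28.3) in separated knockout animals. Its P66 levels were 29.4 to 36.9 (median 32.7) in control wildtype, 27.1 to 35.8 (median 29.9) in separated wildtype, 29.4 to 37.7 (median 35.9) in control knockout and 29.3 to 39.6 (median 33.4) in separated knockout animals. The rise was 0.20 ± 0.0307 (SE), or 1.15-fold (adjusted p = 9.83e-08), and 26 of 31 animals at P66 lay at or above the P22 median of their group. Mcm8, a helicase of recombination repair, changed by 0.16 ± 0.0376 (SE) and Brca2, a protein of DNA repair, by 0.18 ± 0.0626 (SE). Both passed over all animals but not in cohort 1 alone, where their adjusted p-values were 0.0571 and 0.0981. Pcna, the most abundant of the 45 genes, changed by -0.02 ± 0.0197 (SE) (95% interval -0.06 to 0.02) and Mybl2, a transcription factor that works with the E2f and mitotic programmes, by -0.13 ± 0.0729 (SE), and neither passed. Mybl2 passed without animal C1-56 of the separated knockouts at P66 (-0.16, adjusted p = 0.0483), without the 7 libraries low in choroid plexus genes (-0.17, adjusted p = 0.0331) and in cohort 2 alone (-0.27, adjusted p = 0.0313).

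Across the 45 genes the falls were larger where the level, taken as the mean of P22 and P66, was lower. Per kilobase of exon, Pcna had the highest level at both ages, 37.98 CPM per kb at P22 and 37.3 at P66, followed at P66 by Ccne1 (12.3), Mcm6 (10.9) and Smc2 (7.505). The lowest were Iqgap3 (0.157), Ncapg (0.159) and Bub1 (0.187). Of the 15 genes with the highest level per kb 7 fell and 5 rose (median log2 change -0.10), of the middle 15 9 fell and 1 rose (median -0.38), and of the lowest 15 14 fell and none rose (median -0.73). Over all genes tested 25.8% fell and 26.2% rose. Because the sorting used both ages, a fall by itself lowers the level by which a gene was placed. This is a description across genes, which are not independent of each other, and level and role went together. Of the 45 genes 39 had at least 10 counts in all 69 libraries. The exceptions were Bub1, Melk, Kif2c, Ube2c, Ncapg and Iqgap3, which all fell. Their libraries under 10 counts lay almost only at P66. Melk, for instance, had at least 10 counts in 38 libraries at P22 and 17 at P66. The fall itself thus helped to make these genes exceptions, and their falling is no separate support.

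The fall with age was seen in each combination of genotype and rearing. In control wildtypes 24 of the 45 genes fell and 3 rose, where 10.5% and 8.36% of all genes did. In separated wildtypes 27 fell and 1 rose, against 16.4% and 14.5% of all genes. In control knockouts 24 fell and 5 rose, against 14.9% and 13.3%. In separated knockouts 25 fell and 2 rose, against 11.1% and 8.16%. These counts rest on 7 to 11 animals a group, and within 1 cohort they were smaller: for control knockouts 7 fell in cohort 1 and 20 in cohort 2, and for separated knockouts 11 and 9. Of the 45 genes 18 fell in all 4 groups: Aspm, Bub1, Ccna2, Cdc20, Cdca3, Cenpa, Cenpf, Ckap2l, Ect2, Iqgap3, Kif14, Kif2c, Melk, Mki67, Ncaph, Nusap1, Prc1 and Ube2c. The share of all genes tested that fell in all 4 was not counted, but it cannot exceed the 10.5% of control wildtypes. Smc2 rose in all 4 and Ccne1 in 3, with a change of 0.07 ± 0.0548 (SE) in separated wildtypes (adjusted p = 0.321).

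The size of the age change was not shown to depend on genotype or rearing for any of the 45 genes. For the difference between knockouts and wildtypes 0 of the 45 passed and 0% of all genes in either direction, and 0 of the 45 had an unadjusted p under 0.05, against 2.15% of all genes. For the difference between separated and control animals 0 of the 45 passed, while 0.014% of all genes passed as higher and 0.028% as lower. Before adjustment a p under 0.05 was seen in 3 of the 45 (6.67%) and in 6.73% of all genes. The smallest p for rearing was that of Oip5. Its change with age was 0.14 in control wildtypes, 0.33 in control knockouts, -0.63 in separated wildtypes and -0.17 in separated knockouts. The difference was -0.64 ± 0.169 (SE), which did not pass (adjusted p = 0.189). Mcm2 came next with -0.20 ± 0.0855 (SE) (adjusted p = 0.657). For genotype the smallest p-values were those of Oip5, 0.33 ± 0.167 (SE), and Mcm7, -0.12 ± 0.0661 (SE), both with an adjusted p of 1.

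At P22 no gene of the 45 passed for genotype, rearing or their interaction. In these 3 tests 0% of the 7036 genes tested passed in either direction. An unadjusted p under 0.05 was found for 4 of the 45 for genotype (8.89%, against 4.11% of all genes), for 1 for rearing (2.22% against 3.08%) and for 2 for the interaction (4.44% against 8.47%). For knockout minus wildtype the smallest p was that of Brca2. Brca2 measured 7.401 to 14.5 (median 12.2) in control wildtype, 9.16 to 12.2 (median 10.2) in separated wildtype, 7.57 to 11.1 (median 9.198) in control knockout and 7.18 to 14.2 (median 9.56) in separated knockout animals. The difference was -0.22 ± 0.0769 (SE) (95% interval -0.37 to -0.06; adjusted p = 0.832), with much overlap between genotypes. Mcm8 followed with -0.14 ± 0.0557 (SE), from levels of 10.4 to 14.1 (median 11.3) in control wildtype, 10.4 to 14.1 (median 11.8) in separated wildtype, 8.94 to 13.03 (median 11.1) in control knockout and 8.797 to 13.1 (median 10.5) in separated knockout animals. No interval of the 45 reached beyond 0.53 on the log2 scale in this comparison.

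For separated minus control at P22, Oip5 had the smallest p. Oip5 measured 1.08 to 2.55 (median 1.74) in control wildtype, 1.797 to 3.5 (median 2.54) in separated wildtype, 1.48 to 2.65 (median 1.73) in control knockout and 1.31 to 2.67 (median 2.14) in separated knockout animals. Medians were higher in the separated animals of both genotypes, but the ranges overlapped, and the difference of 0.38 ± 0.106 (SE) did not pass (95% interval 0.16 to 0.59; adjusted p = 0.999). It rests on 14 to 49 counts per library. Mcm6 came next with 0.10 ± 0.0506 (SE); its P22 levels were 38.98 to 48.5 (median 44.7) in control wildtype, 36.03 to 59 (median 45.3) in separated wildtype, 36.2 to 51.4 (median 44.2) in control knockout and 41.7 to 60.3 (median 49.9) in separated knockout animals. For the interaction Nusap1 had -0.42 ± 0.144 (SE) and Mcm2 -0.32 ± 0.118 (SE), both with an adjusted p of 0.584. Nusap1 was at 3.01 to 4.03 (median 3.49) in control wildtype, 2.97 to 4.95 (median 3.79) in separated wildtype, 2.75 to 4.91 (median 3.78) in control knockout and 2.88 to 3.59 (median 3.14) in separated knockout animals. Mcm2 was at 8.91 to 12.98 (median 11.5) in control wildtype, 11.1 to 16.2 (median 13.4) in separated wildtype, 10.1 to 15.2 (median 13.2) in control knockout and 10.04 to 13.7 (median 12.5) in separated knockout animals. In both genes separated wildtypes had a higher median than control wildtypes and separated knockouts a lower median than control knockouts. In cohort 1 alone the interaction of Nusap1 was 0.03.

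At P66 the 45 genes likewise gave no call. For knockout minus wildtype 0 passed, while 0.0143% of the 7001 genes tested passed as higher and 0.0429% as lower, and 1 had an unadjusted p under 0.05 (2.22%, against 8.36% of all genes). Ccne1 had the smallest p, with 0.11 ± 0.0463 (SE) (95% interval 0.02 to 0.21; adjusted p = 0.48). Its 4 ranges, given above, overlapped throughout, and within cohorts the difference was 0.02 and 0.20. Kif2c was next with 0.34 ± 0.186 (SE) (adjusted p = 0.639). Kif2c measured 0.5498 to 2.14 (median 0.849) in control wildtype, 0.348 to 1.94 (median 0.869) in separated wildtype, 0.885 to 1.61 (median 1.11) in control knockout and 0.867 to 1.71 (median 1.17) in separated knockout animals. No interval of the 45 reached beyond 0.72 in this comparison.

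For separated minus control at P66, 0 of the 45 passed, while 0.129% of all genes passed as higher and 0.243% as lower. Before adjustment a p under 0.05 was seen in 7 of the 45 (15.6%) and in 12.2% of all genes. Tacc3 had the smallest p. Tacc3 levels were 13.1 to 15.2 (median 14.8) in control wildtype, 9.86 to 16.2 (median 13.4) in separated wildtype, 11.2 to 17.9 (median 16.1) in control knockout and 12.2 to 14.6 (median 13.3) in separated knockout animals. Medians were lower in the separated animals of both genotypes and the ranges overlapped. The difference was -0.19 ± 0.0643 (SE) (95% interval -0.32 to -0.06; adjusted p = 0.19). Without animal C1-22 of the control knockouts it was -0.23 and passed, the only such case among the 31 fits that each left out 1 library. Brca2 came next with -0.26 ± 0.107 (SE) (adjusted p = 0.296). Brca2 levels at P66 were 9.96 to 14.3 (median 12.8) in control wildtype, 9.45 to 15.4 (median 11.8) in separated wildtype, 8.83 to 16.2 (median 14.2) in control knockout and 5.91 to 12.2 (median 10.4) in separated knockout animals.

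For the interaction of genotype and rearing at P66, 0 of the 45 passed and 0% of all genes in either direction, and 0 of the 45 had an unadjusted p under 0.05, against 4.53% of all genes. Brca2 had the smallest p, with -0.41 ± 0.209 (SE), followed by Aurka with -0.32 ± 0.173 (SE), both with an adjusted p of 0.794. In cohort 2 alone the value of Brca2 was 0.11, with the opposite sign. Aurka was at 2.401 to 4.28 (median 3.32) in control wildtype, 2.71 to 4.53 (median 3.69) in separated wildtype, 2.82 to 4.31 (median 3.98) in control knockout and 2.898 to 4.42 (median 3.28) in separated knockout animals. In this comparison the intervals were wide, with a median width to each side of 0.46. Limma-voom also called none of the 45 genes in the 8 tests of genotype, rearing and their interactions. DESeq2 called none of those to which it gave an adjusted p, which were all 45 in 6 of these tests, but 1 of the 45 for genotype and 22 for rearing at P66.

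**Figure D4:**
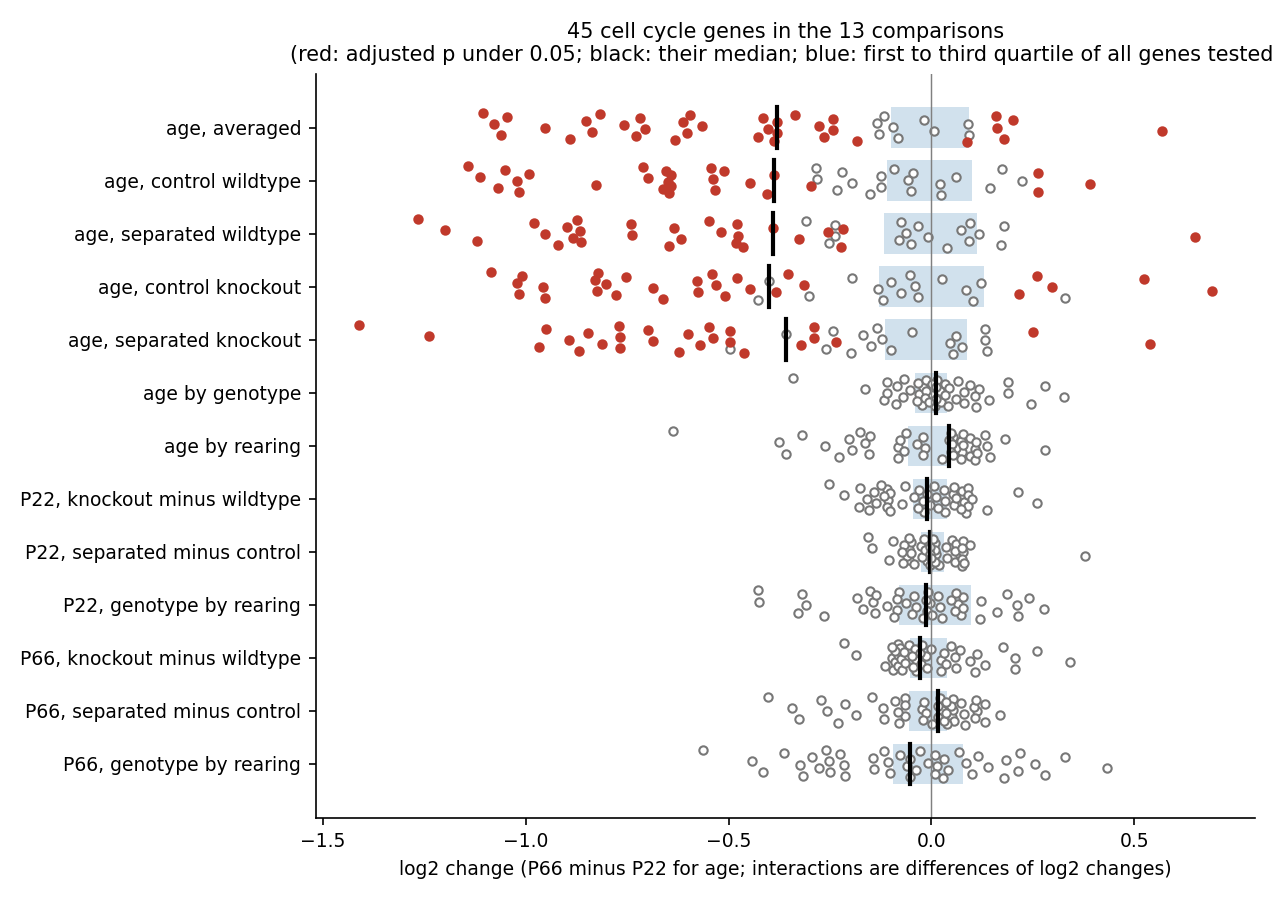
Log2 changes (x axis) of the 45 genes in the 13 comparisons (rows); red points passed at an adjusted p under 0.05, black bars mark the median of the 45 genes and blue bands the range from the first to the third quartile of all genes tested. The 5 age comparisons hold all the called genes, with medians between -0.40 and -0.36, and in the 8 others the medians lie between -0.05 and 0.04.

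**Figure D5:**
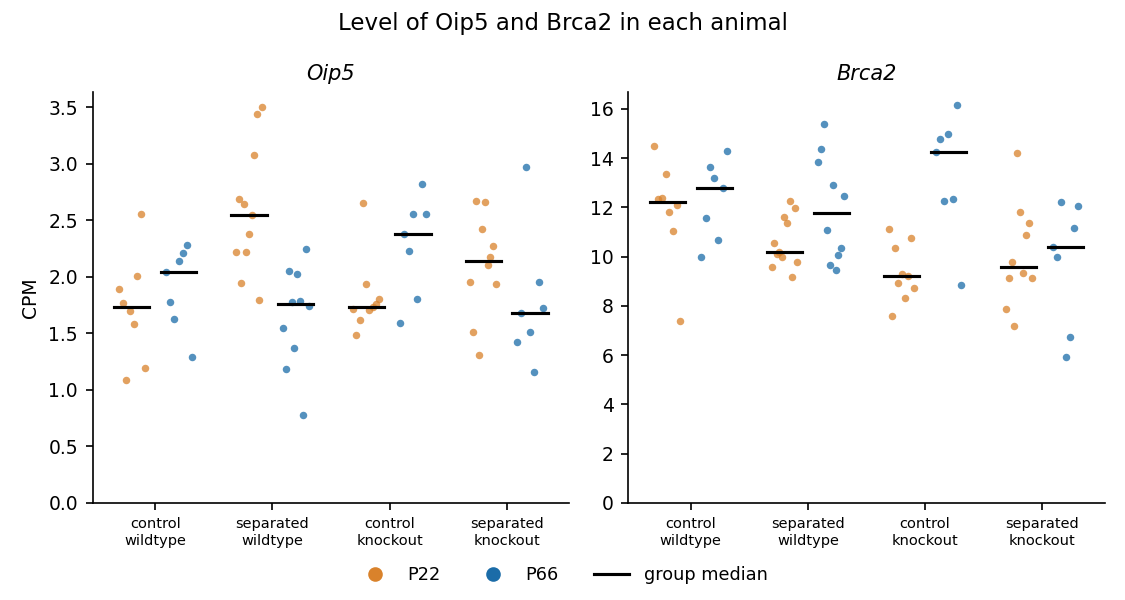
Level (y axis, CPM from 0) of Oip5 and Brca2 in each animal of the 8 groups (points; black line: group median), P22 in orange and P66 in blue. Oip5 is highest in separated wildtypes at P22 (median 2.54 CPM) and the groups overlap for both genes.

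Cell type markers moved with age as well, where 25.8% of all genes tested fell and 26.2% rose. Of 7 markers of oligodendrocyte precursors 6 fell and none rose (median log2 change -0.38), with Neu4 at -0.89 and Pdgfra, the growth factor receptor of these cells, at -0.40. Their summed level lay between 1509 and 2207 CPM at P22 and between 1385 and 1815 CPM at P66. Of 7 markers of newborn neurons 6 fell and none rose (median -0.31), with Igfbpl1 at -2 and Draxin at -1.37, and the sum went from 917 to 1219 CPM at P22 to 815 to 1105 CPM at P66. Of 10 markers of neural stem and progenitor cells 6 fell and 2 rose (median -0.14). The smallest p-values were those of Prom1, at -0.91, and Lpar1, at -1.15, and the genes that rose were Sox2 at 0.15 and Pax6 at 0.18. Their sums were 487 to 693 CPM at P22 and 447 to 585 CPM at P66. All 7 markers of mature oligodendrocytes fell (median -1.39), with Ugt8a, an enzyme of myelin lipid synthesis, at -1.81 and Tspan2 at -1.37, and the sums were 1992 to 4983 and 832 to 2133 CPM. No marker of these lists was without counts. The part of these cells in the fall of the cell cycle genes was not tested.

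Markers of other cells were mixed, as were all genes tested, of which 25.8% fell and 26.2% rose. Of 9 microglial markers 2 rose and 1 fell (median -0.01), with Siglech at 0.12 and Fcrls at -0.32, and the sums were 482 to 647 CPM at P22 and 477 to 649 CPM at P66. Of 10 endothelial markers 1 rose and 4 fell (median -0.08), with Mfsd2a at -0.89 and the glucose transporter Slc2a1 at -0.49. The endothelial sum lay between 724 and 879.7 CPM at P22 and between 624.9 and 773 CPM at P66, with medians of 787 and 684. Of 5 ependymal markers 2 fell (median -0.24), Mia at -0.89 and Rarres2 at -0.24, and the sums were 22.5 to 87.3 and 18.3 to 81.6 CPM. None of 8 choroid plexus markers passed, with Kl at 0.35 and F5 at 0.52, and their sum ranged widely at both ages, from 60.7 to 579 CPM at P22 and from 52.7 to 624 CPM at P66. Of 10 markers of hippocampal neurons 4 rose and 3 fell (median 0.07), with C1ql2, a marker of granule cells, at 0.45 and Slc17a7 at -0.16.

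Among other genes of the cell cycle, not among the 45, falls outnumbered rises for mitosis but not for replication. The share over all genes tested was 25.8% for falls and 26.2% for rises. Of 28 further genes of mitosis and division 14 fell and 4 rose (median -0.13). The largest falls were those of Knl1, the kinetochore platform of Bub1 (-1.04), Ckap2, a spindle protein (-1.03), and Spc25, a partner of Nuf2 (-0.93), and the largest rises those of Numa1 (0.20), Anapc4 (0.07) and Bub3 (0.06). Of 26 further replication genes 10 fell and 10 rose (median 0.00), with Clspn (-0.65) and Pole (-0.35) among the lowest and Rfc3 (0.16), Orc5 (0.16) and Orc4 (0.14) highest. Of 22 cyclins, Cdks, their inhibitors and E2f factors 12 fell and 4 rose (median -0.10). E2f8, a repressor of the E2f family, fell most (-1.26), followed by the Cdk inhibitors Cdkn1c (-0.63) and Cdkn2c (-0.63), and Ccnd1, Wee1 and Cdc25b rose by 0.15, 0.14 and 0.13.

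The promoters of mitotic genes are known to carry a CHR element, at which the DREAM and MuvB complexes hold genes off in resting cells and on in dividing ones, often beside a CCAAT box, the site of NF-Y. S phase promoters are known for E2F sites. These motifs were searched in the RefSeq promoter windows (GRCm38.p6), 250 bases before to 50 bases after each start site, on both strands. The letters taken as a CHR element were TTTGAA and, as its variant form, TTCGAA. For the CCAAT box they were those of its name. An E2F site was any of TTTCCCGC, TTTCGCGC, TTTGCCGC or TTTGGCGC. Overlapping matches were each counted. Windows existed for 41 of the 45 genes, 44 windows in all, and Gins1, Ccna2, Smc4 and Tpx2 had none. A CHR element was present in 59.1% of the 44 windows and in 19.2% of all 32851 windows, a CCAAT box in 68.2% and 37.4%, both together in 54.5% and 7.53%, and an E2F site in 13.6% and 2.27%. Among the 30 windows of genes that fell with age 70.0% held a CHR element, and among the 14 windows of the genes that did not fall 35.7%. The CCAAT box was in 70.0% and 64.3% of these windows and an E2F site in 3 of the 30 and 3 of the 14. The 30 windows belong to 27 genes, of which Ect2, Mcm7 and Prc1 have 2 windows each, and those of Ect2 and of Prc1 overlap over most of their length. Windows follow RefSeq start sites, which can differ from the gene starts of the count table. Those of E2f1, Mcm7, Cdca3, Cdca8, Kif14 and Kif2c lie wholly inside the gene as placed there. All of these genes fell, and all but E2f1 have a window counted with a CHR element. A match of letters is a description and not evidence of binding.

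The following windows belong to the genes with the largest falls in 3 roles, with matches in capitals. They are E2f1 (chr2:154569377-154569676, minus strand) for replication, Bub1 (chr2:127831810-127832109, minus strand) and Cenpf (chr1:189688037-189688336, minus strand) for the kinetochore, and Ube2c (chr2:164769679-164769978, plus strand) and Melk (chr4:44300667-44300966, plus strand) for the kinases and the ubiquitin ligase, each 5′ to 3′ on the strand of the gene.
E2f1: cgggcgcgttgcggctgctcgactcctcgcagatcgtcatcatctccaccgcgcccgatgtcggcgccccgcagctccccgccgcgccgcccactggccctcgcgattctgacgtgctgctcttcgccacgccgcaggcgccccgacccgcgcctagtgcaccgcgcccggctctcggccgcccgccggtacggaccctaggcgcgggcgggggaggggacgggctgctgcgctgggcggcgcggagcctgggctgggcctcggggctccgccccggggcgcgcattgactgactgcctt
Bub1: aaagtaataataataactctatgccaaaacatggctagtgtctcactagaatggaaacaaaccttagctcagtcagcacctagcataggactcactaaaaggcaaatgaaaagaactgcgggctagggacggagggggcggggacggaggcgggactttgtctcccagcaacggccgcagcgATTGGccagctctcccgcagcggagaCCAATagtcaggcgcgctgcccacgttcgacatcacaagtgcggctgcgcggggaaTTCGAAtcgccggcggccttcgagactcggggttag
Cenpf: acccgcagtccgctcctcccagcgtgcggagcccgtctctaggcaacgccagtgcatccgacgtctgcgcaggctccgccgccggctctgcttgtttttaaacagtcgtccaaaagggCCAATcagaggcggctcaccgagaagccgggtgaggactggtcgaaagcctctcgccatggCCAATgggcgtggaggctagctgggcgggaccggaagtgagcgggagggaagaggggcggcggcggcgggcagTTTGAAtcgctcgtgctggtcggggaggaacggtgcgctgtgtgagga
Ube2c: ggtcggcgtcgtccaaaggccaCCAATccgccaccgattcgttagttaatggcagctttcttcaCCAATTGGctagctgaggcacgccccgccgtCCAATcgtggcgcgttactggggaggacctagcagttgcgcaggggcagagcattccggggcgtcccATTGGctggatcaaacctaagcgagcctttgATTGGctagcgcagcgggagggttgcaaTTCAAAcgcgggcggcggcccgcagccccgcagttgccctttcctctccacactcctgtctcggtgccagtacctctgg
Melk: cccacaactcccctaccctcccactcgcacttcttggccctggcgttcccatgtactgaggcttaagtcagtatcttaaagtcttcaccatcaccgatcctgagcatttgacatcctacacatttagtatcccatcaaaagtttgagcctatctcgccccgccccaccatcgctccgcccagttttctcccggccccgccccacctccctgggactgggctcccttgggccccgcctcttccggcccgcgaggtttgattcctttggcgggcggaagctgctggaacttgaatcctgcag
In Bub1 and Cenpf a CHR element begins at base 15 and base 3 of the transcript, with the first CCAAT box at -68 and -132 from the start site, and Ube2c has the element at -29 and 6 CCAAT boxes, of which a pair on opposite strands overlaps. In E2f1 and Melk none of these letters is in the window, although Melk fell as much as Ube2c. The E2f1 window lies wholly inside the gene as placed in the count table, where its 5′ end is at 154569892. Sequence before that end was therefore not searched, and the window does not tell whether it holds an E2F site.

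Smc2, the gene with the largest rise, and the neighbours Nusap1 and Oip5, whose calls with age differ, are shown as well. They were chosen after their values were seen. Nusap1 and Oip5 lie head to head on chromosome 2 and share 172 exon bases on opposite strands. Nusap1 fell with age and Oip5 did not pass. The windows are Smc2 (chr4:52438971-52439270, plus strand), Nusap1 (chr2:119618048-119618347, plus strand) and Oip5 (chr2:119618456-119618755, minus strand).
Smc2: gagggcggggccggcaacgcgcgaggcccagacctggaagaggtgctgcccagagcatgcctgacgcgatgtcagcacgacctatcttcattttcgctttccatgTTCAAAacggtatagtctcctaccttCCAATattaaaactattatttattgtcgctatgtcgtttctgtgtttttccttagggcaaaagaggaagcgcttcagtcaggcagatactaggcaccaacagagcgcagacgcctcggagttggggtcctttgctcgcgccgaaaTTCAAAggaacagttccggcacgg
Nusap1: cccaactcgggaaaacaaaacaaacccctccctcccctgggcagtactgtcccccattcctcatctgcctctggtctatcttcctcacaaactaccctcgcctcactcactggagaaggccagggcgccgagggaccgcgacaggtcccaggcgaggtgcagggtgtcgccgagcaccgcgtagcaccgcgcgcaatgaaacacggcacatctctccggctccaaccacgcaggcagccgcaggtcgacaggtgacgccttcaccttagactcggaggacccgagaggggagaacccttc
Oip5: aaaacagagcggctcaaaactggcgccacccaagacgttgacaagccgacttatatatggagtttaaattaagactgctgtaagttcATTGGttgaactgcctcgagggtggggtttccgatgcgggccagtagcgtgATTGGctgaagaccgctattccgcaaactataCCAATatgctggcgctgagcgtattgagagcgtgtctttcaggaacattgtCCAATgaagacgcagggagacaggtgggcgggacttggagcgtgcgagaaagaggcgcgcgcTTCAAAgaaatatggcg
The window of Smc2 holds 2 CHR elements and a CCAAT box, that of Oip5 a CHR element and 4 CCAAT boxes, and that of Nusap1 none of the letters searched.

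Of the 45 genes 14 share exon bases with a gene on the opposite strand. The shares of their own exon length are largest for Ube2c with Tnnc2 (22.8%), Ncapg with Lcorl (13.4%), Ccna2 with Exosc9 (12.5%), Prc1 with Rccd1 (11.1%) and Oip5 with Nusap1 (9.67%). Mcm7 also holds the microRNA genes Mir25 and Mir93 within its exons. Whether the counting used strand is not given in the sources used here, so reads from these shared stretches cannot be told apart.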

How the data were processed

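RNA of the hippocampus of 69 mice was measured, 1 library per animal. The authors deposited 1 table of raw, unnormalized read counts. The tools that the submitters' processing notes list are limma 3.34.9, edgeR, cutadapt 1.16 and FastQC 0.11.4. Neither aligner, read counter, strand setting nor genome build is given in the sources used here. The positions of all 45 genes were the same in GENCODE M21, so GRCm38 coordinates are printed. The table as held gave 9930 complete records, and 1 broken record was left out. Samples were grouped by genotype, rearing and age from their labels. All 272 pairs of libraries that share a group differed by more than counting error (chi-square over its degrees of freedom 4.60 to 91.8), and none was merged.

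Counts were tested in R 4.3.3 with edgeR 4.0.16 (filterByExpr on the groups, TMM, quasi-likelihood test, with group and cohort in the design). Age and its interactions came from 1 fit of all 69 libraries (7131 genes), and genotype, rearing and their interaction from a fit of each age (7036 genes at P22, 7001 at P66). P-values were adjusted by Benjamini-Hochberg over all genes of a fit, with a threshold of 0.05. CPM are on TMM-scaled totals of the held part, and scores are means of log2 (CPM + 0.5). The total of 11.3 to 16.4 M counts per library limits the precision, above all for genes under 1 CPM. The script was tested on simulated data with known changes. Alternatives were DESeq2 1.42.0, limma-voom 3.58.1, RLE normalization, other count filters, no cohort term, each cohort alone, an adjusted p under 0.1, only the libraries compared or all libraries in 1 fit, leaving out the 7 libraries low in choroid plexus genes, and leaving out each library.

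The 45 genes, their roles and the other lists were chosen with earlier results of these data known. All 45 are named. Values by group are given for the 2 genes of each role with the smallest p for age and for the 2 of all 45 with the smallest p in each other test. Of the other cell cycle lists the 3 largest called rises and falls are named, except a gene that is not reported here, and of the marker lists the 2 called genes with the smallest p, or the 2 most abundant where none was called. Promoters are printed for the 2 largest called falls of 3 roles where RefSeq has a window.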

Additional observations from a re-analysis of the deposited data

Results flagged for a closer look

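For the 21 genes whose values are given by group, and for the summed levels, each group of 4 to 10 animals was searched for an animal set far apart from the others by Dixon's criterion. Of 168 groups checked 12 held such an animal, and chance alone gives about 1 in 20.

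In control knockouts at P66, animal C1-24 was lowest in Aurka (2.82 CPM, next animal 3.74) and in Nusap1 (1.63 CPM, next 2.56). In separated knockouts at P22, animal C1-61 was highest in Ncaph (8.19 CPM, next 5.79) and in Prc1 (8.26 CPM, next 6.71). Animal C2-19 of the control wildtypes at P66 was highest in Kif2c (2.14 CPM, next 1.08 CPM) and in the summed level of all 45 genes (493.6 CPM, next 465.8). In separated wildtypes at P66, animal C1-57 was highest in Kif2c (1.94 CPM, next 1.14), and animal C1-46 in Nusap1 (3.81 CPM, next 2.75). Animal C1-57 is 1 of the 7 libraries low in choroid plexus genes.

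Mcm8 was highest in animal C1-56 of the control wildtypes at P22 (14.1 CPM, next 11.7) and lowest in animal C1-56 of the separated knockouts at P66 (8.93 CPM, next 11.7), a different animal that is also low in choroid plexus genes. Ccne1 was highest in animal C2-23 of the separated knockouts at P22 (33.3 CPM, next 29.2). Oip5 was highest in animal C1-55 of the control knockouts at P22 (2.65 CPM, next 1.93).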

How the results depend on the processing

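The counts of 30 falls and 6 rises with age stayed at 28 to 31 and 3 to 7 over all alternatives, leaving out each library included; the 3 rises were those of cohort 1 alone. Within single groups the counts moved more, and the cause was not tested. In cohort 1 alone 12 genes fell and 0 rose in control wildtypes, 7 and 0 in control knockouts, and 11 and 0 in separated knockouts. In cohort 2 alone 10 fell in control wildtypes, and 9 fell and 1 rose in separated knockouts. With only the libraries compared 16 fell in separated knockouts, and with no count filter 1 rose in control wildtypes. Leaving out each library gave 1 to 4 rises in control wildtypes (1 without animal C2-97 of the control wildtypes at P22) and 0 to 1 call for rearing at P66, Tacc3 without animal C1-22 of the control knockouts. No other count of called genes moved by over 1.5 times, but for genotype and rearing at P66 DESeq2 gave an adjusted p for only 1 and 22 of the 45 genes.

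For single genes, calls with age were lost in cohort 1 alone for Mcm8, Stil, Brca2, Mad2l1 and Plk1, in cohort 2 alone for Mcm6 and Kif18a, and for Mad2l1 also with no count filter (adjusted p = 0.0506) and without animal C2-84 of the separated knockouts at P66. Calls were gained for Mybl2 and Plk4 in cohort 2 alone, for Mybl2 also without animal C1-56 of the separated knockouts at P66 and without the 7 libraries low in choroid plexus genes, for Mcm2 with at least 1 CPM in 7 libraries, with no cohort term and in 16 of the 69 fits that each left out 1 library, and for Aurka in 9 of these 69.

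Signs turned for genes that had not passed: Pcna (0.0139) and Mybl2 (0.0204) in cohort 1, Smc4 (0.0236) in cohort 2, Kntc1 with no count filter (-0.000509) and between -0.0175 and 0.0237 when leaving out each library, the P22 interaction of Nusap1 in cohort 1 (0.0343) and the P66 interaction of Brca2 in cohort 2 (0.115). The cause was not tested, and each cohort alone holds fewer animals. No paired analysis was possible because animals were numbered anew in each cohort and rearing condition, so equal numbers mark no shared origin. Bub1 and Kif2c, with as few as 4 counts, had wide intervals with age, but low counts did not alone set the width. The SE of Bub1b, with 32 to 199 counts per library, was above that of Kif2c.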
